A study of Mus musculus with 4 samples.

Results

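Of the 21578 genes in the joined count tables, 10 were taken by name as genes of pericytes, of vascular smooth muscle and of the signal that draws both to vessels. They were the endothelial ligand Pdgfb, the pericyte genes Pdgfrb, Rgs5, Kcnj8, Abcc9, Cspg4, Notch3 and Anpep, and the smooth muscle genes Acta2 and Tagln. Each was taken by its symbol, with earlier results of these data known. The results showed that Pdgfb was 1.50-fold higher in Pd1cKO-Tie2 libraries, with little spread within each genotype, and stayed under the 2-fold limit used here. Its adjusted p was 0.735 in edgeR. All 18 endothelial markers also had positive log2 fold changes, and against their summed level Pdgfb was 0.24 higher on the log2 scale. Pericyte genes were present although endothelial cells had been sorted, Rgs5 and Kcnj8 at high levels, and the lower means of the 7 pericyte genes in Pd1cKO-Tie2 libraries rested largely on 1 control library. Acta2 and Tagln were close to 0 in every library.

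Pericytes and smooth muscle cells are the mural cells that wrap the endothelial tube, pericytes on capillaries and smooth muscle on arteries and arterioles. Sprouting endothelial cells secrete platelet-derived growth factor B (PDGF-B, from Pdgfb), which is held near the vessel by heparan sulphate and binds the receptor PDGFRβ (from Pdgfrb) on mural cells. In the developing brain this pair drives the spread of pericytes along new vessels, and pericytes in turn take part in forming the blood-brain barrier.

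RNA from brain endothelial cells of C57BL/6 mice at postnatal day 0 (P0) was sequenced. The controls were Pd1fl/fl mice, whose Pd1 gene (Pdcd1, the immune checkpoint receptor PD-1) is flanked by loxP sites, and the conditional knockouts were Pd1cKO-Tie2 mice, in which Cre driven by Tie2 deletes that gene. Both genotypes carry the floxed gene, and no drug or other treatment was named. Tie2-driven Cre is active in endothelial cells and also in blood-forming cells, so the deletion need not be limited to endothelium. The study purified the cells by flow cytometry, and its protocol for endothelial cells labels dissociated cortex with antibodies to CD31 and CD45. There were 2 libraries per genotype, called replicates 1 and 2 below (controls for Pd1fl/fl, knockouts for Pd1cKO-Tie2), and nothing in the sources says whether each came from 1 animal or a pool, so p-values measure only the spread between these libraries. The comparison bears on what endothelial PD-1 loss does to the signals and cells of the vessel wall.

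Total counts were between 13715837 and 14359990 in the Pd1fl/fl libraries and between 14157027 and 24147311 in the Pd1cKO-Tie2 libraries. Levels are given as CPM, the counts scaled to an equal library size with the TMM factors of edgeR. Where nothing was counted, a level of up to 0.126 to 0.22 CPM (3 counts, depending on the library) remains possible from counting error alone. The deleted gene, Pdcd1, was counted 32 times in Pd1fl/fl replicate 1 and 0 times in both knockouts. It was not listed for Pd1fl/fl replicate 2, so the deletion could not be checked against the second control at this depth. Of the endothelial markers, 18 of 18 were measured, and their summed level was 18820 and 17890 CPM in the controls and 22870 and 23800 CPM in the knockouts. Pd1fl/fl replicate 1 stood apart in some genes of neutrophil granules. Ltf (lactoferrin) was counted 3132 times there and Camp (an antimicrobial peptide) 342 times. Both were at 0 in the knockouts and were not listed for Pd1fl/fl replicate 2. Mpo (myeloperoxidase, also of neutrophil granules) was not limited to Pd1fl/fl replicate 1, with 2423 and 339 counts in the controls, and 1278 and 0 in the knockouts. The fibroblast genes Col1a1 and Lum had 152 and 39 counts in that library and 0 in the others. For this reason each result below that turns on Pd1fl/fl replicate 1 is given with and without it.

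A gene was called when its fold change was 2 or more and its p was not above 0.05 in edgeR's quasi-likelihood test, the limits that the study's methods set. This criterion was met by 4.02% of the 15909 genes tested, 1.41% being higher and 2.61% lower in Pd1cKO-Tie2 libraries. Of the 10 genes, 8 passed the filter on low counts, and 0 of these 8 met the criterion. With p-values adjusted by Benjamini-Hochberg across every tested gene, 0 of the 8 were under 0.05 in edgeR, and the share among all tested genes was 0%. After adjustment DESeq2 and limma-voom gave 0 of the 8 as well, against 116 of all tested genes in DESeq2 and 0 in limma-voom. The unadjusted edgeR p was under 0.05 for 1 of the 8, Pdgfb, against 6.39% of all tested genes. This number was not stable when a library was left out, which leaves 1 genotype with a lone library.

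**Figure D1:**
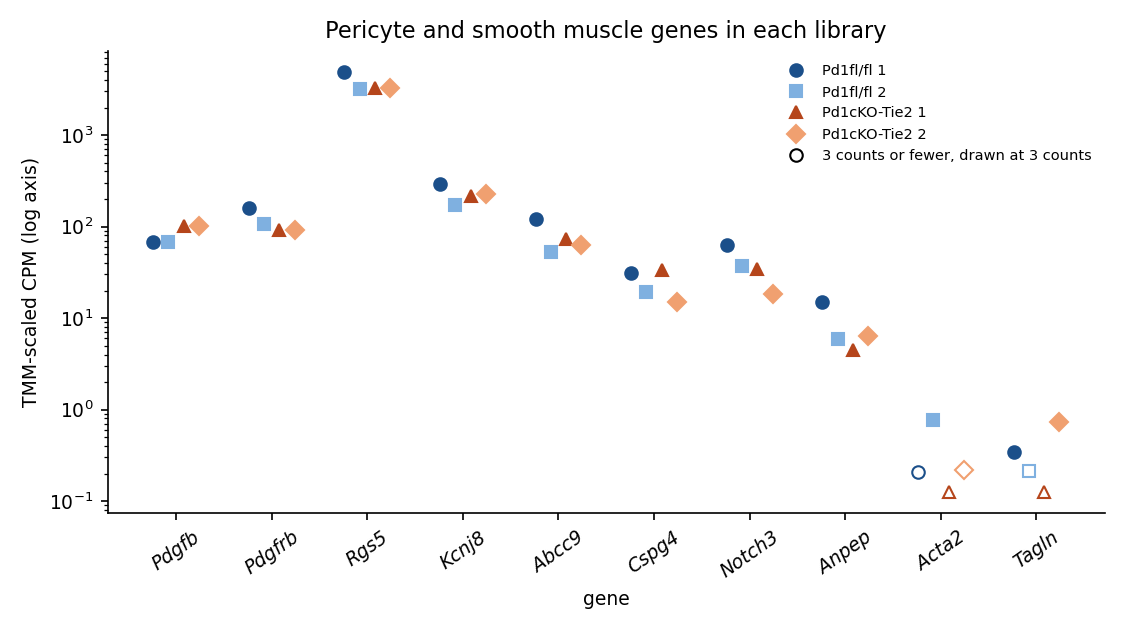
Level of each of the 10 genes (TMM-scaled CPM, log axis) in the 4 libraries, 1 point per library; open symbols stand for 3 counts or fewer and are drawn at the level of 3 counts. Pdgfb is the gene whose Pd1cKO-Tie2 libraries (102 and 101 CPM) both lie well above both Pd1fl/fl libraries (67.0 and 68.4 CPM), and Acta2 and Tagln lie below 1 CPM throughout.

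Per kilobase of exon, the scale on which levels of different genes can be compared, Rgs5 had the highest mean level of the 10 genes. It stood at 807 CPM per kb, which ranked 23 among the 15909 tested genes. Kcnj8 followed at 89.0 CPM per kb (97.0th percentile of tested genes) and ranged from 66.9 to 115 over the 4 libraries. Both lay clear of every gene below them. Pdgfrb and Pdgfb had nearly equal mean levels of 20.5 and 20.3 CPM per kb (84.5th and 84.4th percentiles), and their ranges overlapped. Abcc9 came next at 9.26 CPM per kb, with a range of 6.29 to 14.6 that did not reach the lowest Pdgfb value of 16.1 but overlapped that of Notch3. Notch3 had a mean of 4.74 CPM per kb and ranged from 2.29 to 7.80. Cspg4 at 2.08 and Anpep at 1.92 CPM per kb overlapped each other and the low end of Notch3. Tagln at 0.169 and Acta2 at 0.0882 CPM per kb were lower than all of these in every library. The endothelial gene Cldn5 (claudin-5, a tight junction protein), the highest of the endothelial markers by CPM, stood at 4213 CPM per kb.

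**Figure D2:**
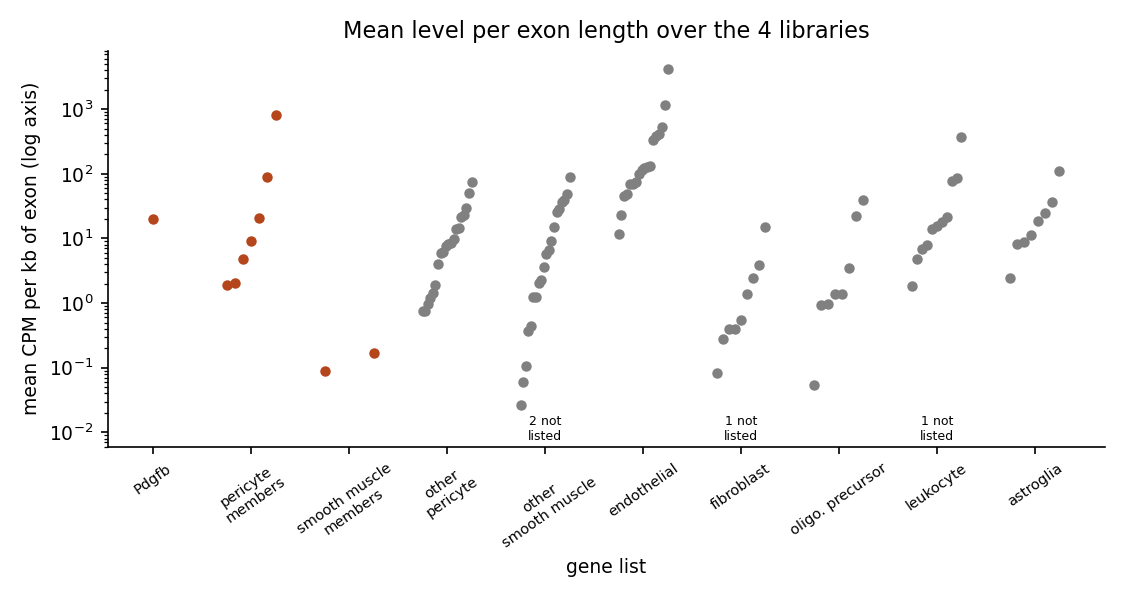
Mean level over the 4 libraries in CPM per kb of exon (log axis), 1 point per gene, for the 10 genes (red-brown) and for lists of other genes (grey). The pericyte genes reach from 1.92 (Anpep) to 807 (Rgs5), and Rgs5, Kcnj8 and Pdgfrb lie among the endothelial markers. Abcc9, Notch3, Cspg4 and Anpep lie below all of these markers, and Acta2 and Tagln lie far lower.

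Pdgfb (ENSMUSG00000000489) lies at chr15:79995900-80014808 of GRCm38 on the minus strand and encodes the ligand that endothelial cells send to mural cells. Control replicates 1 and 2 held 966 and 971 counts, and knockout replicates 1 and 2 held 2436 and 1380. Scaled to library size these were 67.0 and 68.4 CPM against 102 and 101 CPM. Both Pd1cKO-Tie2 libraries were thus above both controls, as in 17.7% of all tested genes, and the libraries of each genotype hardly differed. The means were 67.7 ± 0.983 and 102 ± 0.617 CPM (SD, n = 2). In the fit this gave a log2 fold change of 0.58 (standard error 0.19, 95% interval 0.11 to 1.06), or 1.50-fold with an interval of 1.08 to 2.09. Adjusted p-values were 0.735 in edgeR, 0.422 in DESeq2 and 0.742 in limma-voom. With any library left out, the log2 fold change lay between 0.57 and 0.60.

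Endothelial genes as a group had a higher level in the same libraries, so Pdgfb was also set against them. Of the 18 endothelial markers, 17 lay above both controls in both Pd1cKO-Tie2 libraries, against 17.7% of all tested genes. All 18 had a positive log2 fold change and 0 met the criterion. Their median log2 fold change was 0.34, where all tested genes had a median of 0.00. In the same libraries the astroglia markers had a negative log2 fold change in 8 of 8 (median -0.97) and the leukocyte markers in 9 of 9 tested (median -1.18), and their part in the endothelial values was not tested. By unadjusted p, 10 of the 18 were under 0.05 in edgeR and 0 were after adjustment. Divided by the summed endothelial level of its own library, Pdgfb stood at 0.00356 and 0.00382 in the controls and at 0.00446 and 0.00425 in the knockouts. On the log2 scale this ratio was 0.24 higher in Pd1cKO-Tie2 libraries, with SDs of 0.07 and 0.05 (n = 2). The libraries did not overlap, and an exact two-sided permutation test gave p = 0.333, the smallest that 2 libraries against 2 can give.

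The receptor gene Pdgfrb (ENSMUSG00000024620) encodes the tyrosine kinase on pericytes that binds PDGF-B. The control libraries held 2288 and 1500 counts, and the knockouts 2193 and 1257. In CPM these were 158.7 and 105.7 against 91.8 and 92.1. Both Pd1cKO-Tie2 libraries lay below both controls, as in 18.1% of all tested genes, and the controls differed from each other 1.50-fold. Its log2 fold change was -0.52 (standard error 0.25, 95% interval -1.14 to 0.09), with an adjusted p of 0.859 in edgeR. Without Pd1fl/fl replicate 1 it was -0.20.

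Ligand and receptor can be set against each other within a library, which makes the value independent of library scaling. The ratio of Pdgfb to Pdgfrb counts was 0.422 in control replicate 1, 0.648 in control replicate 2, and 1.11 and 1.10 in the knockouts. As counts, which are not per length, Pdgfrb exceeded Pdgfb in both control libraries, and Pdgfb exceeded Pdgfrb in both Pd1cKO-Tie2 libraries. The log2 ratio was 1.08 higher in Pd1cKO-Tie2 libraries, with SDs of 0.44 and 0.01 (n = 2, exact two-sided permutation p = 0.333, the smallest possible). Without Pd1fl/fl replicate 1 the difference was 0.77, and it lay between 0.77 and 1.39 with any library left out. In these bulk libraries, fewer cells of a type and less RNA per cell cannot be told apart.

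**Figure D3:**
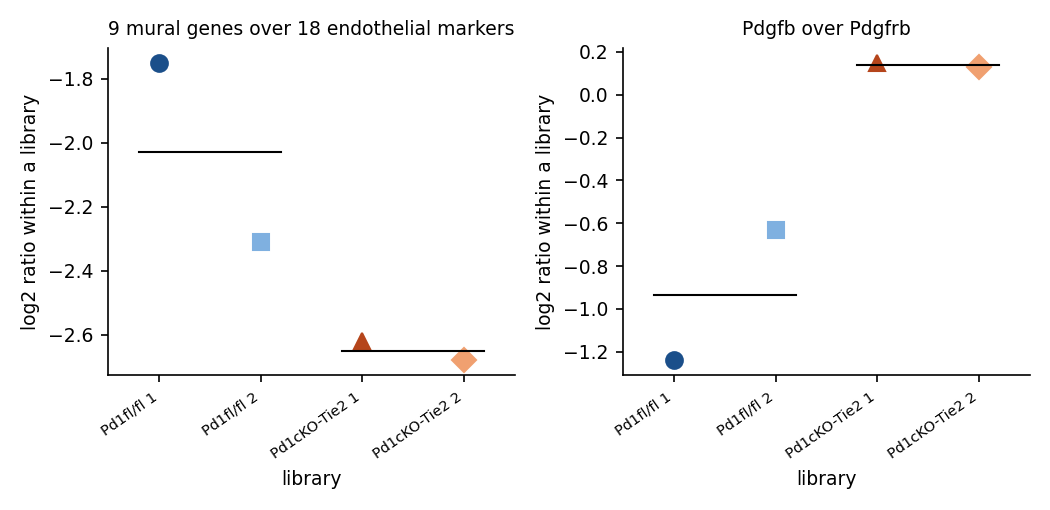
Ratios within each library on the log2 scale, with points for libraries and horizontal bars for genotype means: left, the summed level of the 9 pericyte and smooth muscle genes over that of 18 endothelial markers; right, Pdgfb over Pdgfrb. The left ratio falls between -1.75, the value of control replicate 1, and -2.68, that of knockout replicate 2, and the right ratio lies below 0 in both Pd1fl/fl libraries and at 0.15 and 0.13 in the Pd1cKO-Tie2 libraries.

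Rgs5 (ENSMUSG00000026678, chr1:169655501-169695813, plus strand) encodes a regulator of G protein signalling that marks brain pericytes. It was counted 70865 and 45707 times in the controls, and 77874 and 44763 times in the knockouts. Its level was 4916 CPM in Pd1fl/fl replicate 1 and between 3220 and 3279 CPM in the other libraries. The genotypes overlapped, and Pd1fl/fl replicate 1 alone was high, 1.53-fold above replicate 2. The log2 fold change was -0.32 (standard error 0.20, 95% interval -0.81 to 0.18, adjusted p = 0.944 in edgeR), and 0.02 without that library.

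Kcnj8 and Abcc9 encode the pore (Kir6.1) and the sulphonylurea receptor (SUR2) of one ATP-sensitive potassium channel of mural cells. They are neighbours on the minus strand of chromosome 6, at chr6:142564837-142571614 (ENSMUSG00000030247) and chr6:142587862-142702315 (ENSMUSG00000030249). Kcnj8 was counted 4208 and 2420 times in the controls, and 5190 and 3100 times in the knockouts, or 291.9 and 170.5 CPM against 217.2 and 227.1 CPM. The Pd1cKO-Tie2 values fell between the controls. Its log2 fold change was -0.06 (standard error 0.27, 95% interval -0.73 to 0.61, adjusted p = 1 in edgeR), and 0.38 without Pd1fl/fl replicate 1. Abcc9 was counted 1761 and 748 times in the controls, and 1744 and 851 times in the knockouts, or 122.2 and 52.7 CPM against 73.0 and 62.3 CPM. Here too both Pd1cKO-Tie2 libraries lay between the controls, which differed 2.32-fold. The log2 fold change was -0.37 (standard error 0.41, 95% interval -1.38 to 0.65, adjusted p = 1 in edgeR), and 0.36 without Pd1fl/fl replicate 1. Counts of Kcnj8 per count of Abcc9 were 2.39 and 3.23 in the controls, and 2.98 and 3.64 in the knockouts. This ratio overlapped between the genotypes (difference 0.24 on the log2 scale, SDs 0.31 and 0.21, n = 2, exact two-sided permutation p = 0.667). Exons of Abcc9 share 158 bases with 5330439B14Rik on the other strand, and since the use of strand is not given, reads there cannot be told apart.

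Notch3 (ENSMUSG00000038146, chr17:32120820-32166880, minus strand) encodes the Notch receptor of mural cells, which is needed for the upkeep of arterial smooth muscle. The control libraries held 909 and 527 counts, and the knockouts 829 and 253, or 63.1 and 37.1 CPM against 34.7 and 18.5 CPM. Both Pd1cKO-Tie2 libraries lay below both controls, but the nearest pair differed little and each genotype spread widely, 1.70-fold in Pd1fl/fl and 1.87-fold in Pd1cKO-Tie2. The log2 fold change was -0.91 (standard error 0.43, 95% interval -1.98 to 0.16), with an adjusted p of 0.859 in edgeR. Notch3 was the gene of the 10 whose call depended on the libraries included. It met the criterion without Pd1fl/fl replicate 2 (log2 fold change -1.24) and without Pd1cKO-Tie2 replicate 1 (-1.43), while without Pd1fl/fl replicate 1 the value was -0.48. Its exons share 488 bases with Gm17276 on the other strand. Gm17276 itself had 0 counts in both controls and 6 in knockout replicate 1, and was not listed for knockout replicate 2.

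Anpep (ENSMUSG00000039062, chr7:79821803-79861059, minus strand) encodes aminopeptidase N, known as CD13, a surface protein by which brain pericytes are stained. It was counted 218 and 84 times in the controls, and 106 and 86 times in the knockouts, or 15.1 and 5.92 CPM against 4.44 and 6.30 CPM. The genotypes overlapped, and Pd1fl/fl replicate 1 was 2.56-fold above replicate 2. The log2 fold change was -0.97 (standard error 0.69, 95% interval -2.67 to 0.73, adjusted p = 0.965 in edgeR), and -0.14 without Pd1fl/fl replicate 1. Cspg4 (ENSMUSG00000032911, chr9:56865033-56899870, plus strand) encodes the proteoglycan NG2, which is found on pericytes and on oligodendrocyte precursors. The control libraries held 450 and 272 counts, and the knockouts 806 and 205, or 31.2 and 19.2 CPM against 33.7 and 15.0 CPM. Of the pericyte genes it was the one whose highest level was not in Pd1fl/fl replicate 1, and the Pd1cKO-Tie2 libraries differed 2.25-fold. Its log2 fold change was -0.04 (standard error 0.50, 95% interval -1.27 to 1.19, adjusted p = 1 in edgeR), and the sign turned with the library left out, from -0.74 without Pd1cKO-Tie2 replicate 1 to 0.42 without replicate 2. The summed level of 8 oligodendrocyte precursor markers was 481.9 and 619.5 CPM in the controls, and 442.4 and 296.4 CPM in the knockouts. This sum was lowest in Pd1cKO-Tie2 replicate 2, the library in which Cspg4 was lowest too. Most of it was Ptprz1, at 315.1 and 503 CPM in the controls, and 243.5 and 192.1 CPM in the knockouts. Ptprz1 and Cspg5 were lowest in Pd1cKO-Tie2 replicate 2, while Pdgfra, Olig1, Olig2, Sox10, Gpr17 and Nkx2-2 were not. The part of oligodendrocyte precursors in the Cspg4 value was not tested.

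**Figure D4:**
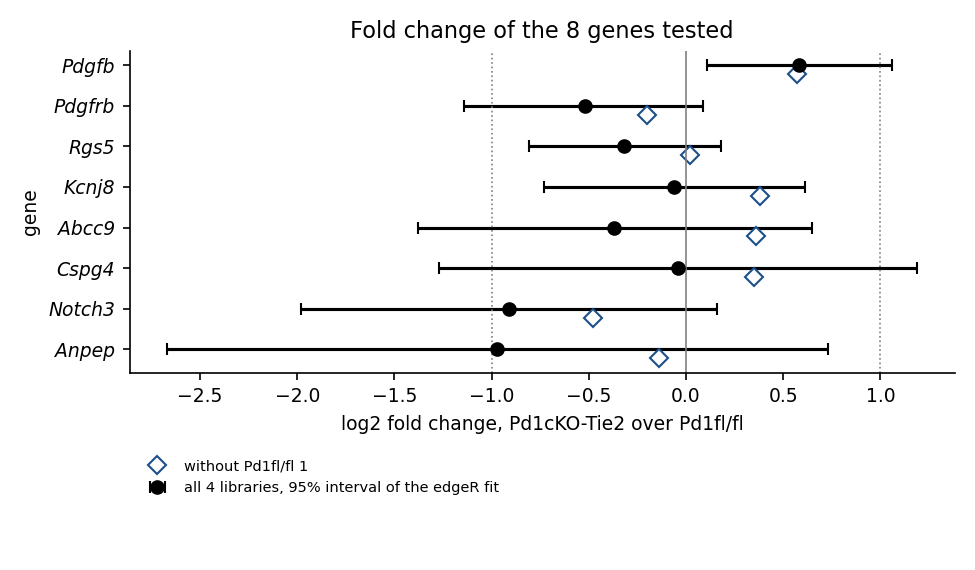
Log2 fold change (Pd1cKO-Tie2 over Pd1fl/fl) of the 8 genes that passed the filter, as filled points with the 95% interval of the edgeR fit on all 4 libraries, and as open diamonds for the fit without Pd1fl/fl replicate 1; dotted lines mark 2-fold. The interval of Pdgfb (0.11 to 1.06) lies above 0 and those of the other 7 genes include 0, and without that library Rgs5, Kcnj8, Abcc9 and Cspg4 have positive values.

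As a group, the 7 pericyte genes had negative log2 fold changes in 7 of 7 cases with a median of -0.37, and 0 of 7 met the criterion. Pd1cKO-Tie2 libraries lay below both controls in 2 of them, Pdgfrb and Notch3, where 18.1% of all tested genes did so, and overlapped the controls in 5. In 6 of the 7 (85.7%) the highest level was in Pd1fl/fl replicate 1, while 24.3% of all tested genes were highest there. The median log2 ratio of Pd1fl/fl replicate 1 to replicate 2 was 0.76 over these genes and -0.01 over all tested genes. Without Pd1fl/fl replicate 1 the median fold change of the 7 genes was 0.02 on the log2 scale. The summed level of the fibroblast markers was highest in this library as well, at 207 CPM against 107.1, 144.6 and 167.3 CPM in the others. Not every fibroblast marker was, since Col3a1 stood at 43.1 and 12.6 CPM in the controls, and 57.0 and 41.0 CPM in the knockouts. The neutrophil genes named above were also highest in Pd1fl/fl replicate 1. Of the 10 fibroblast markers, 9 were listed and 5 were tested, and the part of fibroblasts or neutrophils in the pericyte values was not tested.

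Pericyte RNA relative to endothelial RNA was compared within each library. The summed level of the 9 genes other than Pdgfb, divided by that of the 18 endothelial markers, was 0.297 and 0.202 in the controls, and 0.162 and 0.156 in the knockouts. The libraries did not overlap. The log2 ratio was 0.62 lower in Pd1cKO-Tie2 libraries (difference -0.62, SDs 0.39 and 0.04, n = 2, exact two-sided permutation p = 0.333, the smallest possible). Rgs5 makes up most of the sum, and without it the difference was -0.59. With all 9 genes, the difference was -0.35 without Pd1fl/fl replicate 1 and -0.90 without Pd1fl/fl replicate 2. Where each gene weighs the same (mean of log2 CPM over genes, relative to the endothelial mean), the difference was -0.92. These values were -4.31 and -4.48 in the controls, and -5.36 and -5.28 in the knockouts. Acta2 and Tagln, close to 0, weigh as much in them as the other genes. The endothelial sum was higher in both Pd1cKO-Tie2 libraries, and the pericyte sum was high in Pd1fl/fl replicate 1. The sum of the 7 pericyte genes was 5598, 3611, 3714 and 3700 CPM in the order given, so that outside Pd1fl/fl replicate 1 it hardly differed.

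A wider list of 20 other pericyte genes was measured in full, and 0 of 20 met the criterion. Of these, 8 had positive and 12 negative log2 fold changes, with a median of -0.08, and 0 had an unadjusted p under 0.05. The most abundant by CPM was Ebf1 (a transcription factor of pericytes and other cells) at 209, 192, 205 and 237 CPM, which overlapped between the genotypes (log2 fold change 0.14, standard error 0.16). In 10 of the 20 (50%) Pd1fl/fl replicate 1 was the highest library, and without it the median was 0.11. The next statements name genes chosen after their values were seen. Vtn (vitronectin, abundant in brain pericytes) was at 163.6 and 150.1 CPM in the controls, and 147.5 and 133.9 CPM in the knockouts (log2 fold change -0.16, standard error 0.17). Vtn and Slc38a11 were the 2 genes of this list that lay below both controls, as did 18.1% of all tested genes. Cox4i2, Tbx18 and Art3 were the 3 that lay above both, as did 17.7% of all tested genes. None of these 5 had a p under 0.05 in edgeR.

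**Figure D5:**
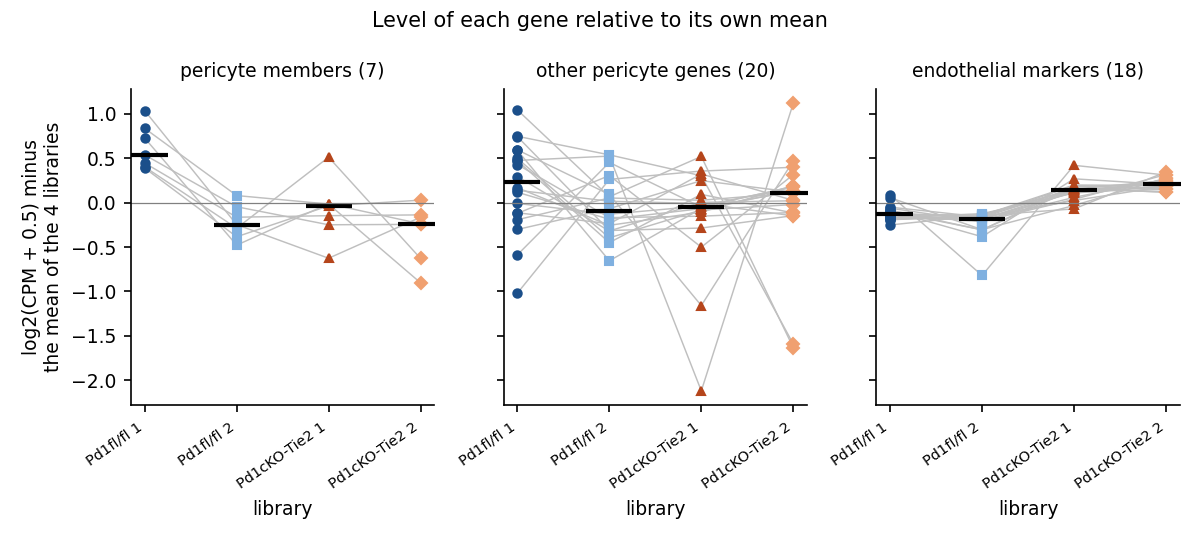
Level of each gene in each library relative to its own mean over the 4 libraries, as log2(CPM + 0.5), for the 7 pericyte genes, 20 other pericyte genes and 18 endothelial markers; grey lines join a gene and black bars are medians. The 7 pericyte genes lie above 0 in Pd1fl/fl replicate 1, while the medians of the endothelial markers lie below 0 in both Pd1fl/fl libraries and above 0 in both Pd1cKO-Tie2 libraries.

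Acta2 and Tagln, the smooth muscle genes of the 10, were nearly absent. Acta2 (ENSMUSG00000035783, chr19:34241090-34255336, minus strand) encodes smooth muscle α-actin. It was counted 11 times in Pd1fl/fl replicate 2 and 0 times in both knockouts, and it was not listed for Pd1fl/fl replicate 1. Tagln (ENSMUSG00000032085, chr9:45929619-45936058, minus strand) encodes transgelin, an actin-binding protein of contractile cells. It was counted 5 and 2 times in the controls, and 3 and 10 times in the knockouts. Neither passed the filter on low counts, and a genotype difference was not detectable at this depth. In an edgeR fit of every listed gene, the adjusted p was 0.924 for Acta2 and 1 for Tagln. Exons of Tagln share 108 bases with Pcsk7 and 1241 bases with Gm48529 on the other strand, so its few reads are uncertain. These 2 genes therefore gave no support to a smooth muscle signal in these libraries, while the pericyte genes were present.

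Acta2 and Tagln are textbook targets of serum response factor (SRF), which binds a DNA element called the CArG box. The RefSeq promoter window (250 bases before to 50 after the transcription start, build GRCm38.p6) of Acta2, the least abundant of the 10 genes, is shown beside that of Rgs5, the most abundant. Capitals mark CArG boxes in which 1 base of the central run of A and T is replaced by G or C. The Acta2 window is chr19:34255324-34255623 on the minus strand and the Rgs5 window is chr1:169655251-169655550 on the plus strand, and both read 5′ to 3′.
Acta2: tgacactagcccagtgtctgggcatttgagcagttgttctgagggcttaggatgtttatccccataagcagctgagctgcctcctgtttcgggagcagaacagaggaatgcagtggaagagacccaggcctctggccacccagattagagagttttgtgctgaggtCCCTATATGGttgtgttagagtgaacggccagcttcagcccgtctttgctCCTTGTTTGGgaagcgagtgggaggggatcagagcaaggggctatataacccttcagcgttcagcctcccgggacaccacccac
Rgs5: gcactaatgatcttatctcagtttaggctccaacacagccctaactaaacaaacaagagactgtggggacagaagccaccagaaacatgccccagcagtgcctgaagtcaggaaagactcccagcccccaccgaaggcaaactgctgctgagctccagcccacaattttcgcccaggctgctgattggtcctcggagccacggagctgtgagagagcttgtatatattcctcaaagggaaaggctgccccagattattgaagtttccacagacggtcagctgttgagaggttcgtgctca
The motif is its own reverse complement, so both strands were covered in 1 search. In the Acta2 window 2 boxes were found, each with 1 base off, which begin 84 and 34 bases before the RefSeq start. The deposited position of Acta2 begins at base 34255336, inside the window and after that start, so the distances hold for the RefSeq start only. In the Rgs5 window there was no box. Of the 10 genes, 7 had a window in the RefSeq table, and the other 6 of those 7 windows were also without a box. Among all 32851 windows of this length, 1.63% held an exact box, 9.98% held a box with at most 1 base off, and 0.822% held at least 2 of these. A match describes letters only. Srf itself was measured, at 8.26 and 21.8 CPM in the controls, and 46.0 and 28.5 CPM in the knockouts. Both Pd1cKO-Tie2 libraries were above both controls, but the spread within each genotype was large and Srf did not meet the criterion (log2 fold change 1.31, standard error 0.55, adjusted p = 0.806 in edgeR). It met the criterion in DESeq2, in limma-voom, under both other filters and without Pd1fl/fl replicate 2 (2.18). Without Pd1fl/fl replicate 1 the value was 0.77, and without Pd1cKO-Tie2 replicate 1 it was 0.93, and neither met the criterion.

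Among 22 other smooth muscle genes, 20 were listed, 18 were tested and 0 met the criterion. Their log2 fold changes were positive in 11 and negative in 7, with a median of 0.12, and 0 had an unadjusted p under 0.05. Levels within the list differed widely. Actg2 (smooth muscle γ-actin) and Myocd (myocardin, the SRF partner of smooth muscle) were not listed, which leaves at most 4 counts in a library. Myh11 (smooth muscle myosin heavy chain) was counted 0 and 6 times in the controls, and 40 and 16 times in the knockouts, with an adjusted p of 0.976 in edgeR. Cnn1 (calponin) had 0, 3, 0 and 6 counts and Lmod1 (leiomodin) had 0, 5, 0 and 1 counts in the same order. The 0 of Cnn1 in knockout replicate 1 and that of Lmod1 in control replicate 1 stand for values that were not listed. Other genes of contractile cells were well above these. Smtn (smoothelin) was at 156 and 172 CPM in the controls, and 173 and 176 CPM in the knockouts, which is the 91.8th percentile of tested genes per kb of exon. Myl9 (a myosin light chain) was at 101 and 95.9 CPM in the controls, and 112 and 101 CPM in the knockouts, at the 96.9th percentile. The choice of Myh11, Cnn1, Lmod1, Smtn and Myl9 was made after seeing their values. By CPM the most abundant was Tpm1 (tropomyosin) at 260, 180, 254 and 255 CPM, which overlapped between the genotypes (log2 fold change 0.21, standard error 0.21).

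The pathway around Pdgfb was described through 47 genes in 3 lists, of which 2 met the criterion, both lower in Pd1cKO-Tie2 libraries, where 4.02% of all tested genes met it in either direction. Of the 47, 29 had positive and 18 negative log2 fold changes with a median of 0.06, and 7 had an unadjusted p under 0.05, against 6.39% of all tested genes. The 5 other genes of the PDGF family (ligands Pdgfa, Pdgfc and Pdgfd, receptor Pdgfra and the receptor-like Pdgfrl) had 0 past the criterion. The most abundant, Pdgfd, encodes a ligand that also binds PDGFRβ. It stood at 84.8 and 84.1 CPM in the controls, and 117 and 141 CPM in the knockouts. As with Pdgfb, both Pd1cKO-Tie2 libraries were above both controls, and the size was similar (log2 fold change 0.61, standard error 0.20, adjusted p = 0.73 in edgeR).

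Heparan sulphate binds PDGF-B at the vessel, and 12 genes of its synthesis and core proteins were followed. The most abundant, Ext2 (a chain-building enzyme), was at 181 and 174 CPM in the controls, and 202 and 256 CPM in the knockouts, with a log2 fold change of 0.37 (standard error 0.18). Sdc4 (syndecan-4, a membrane heparan sulphate proteoglycan) met the criterion. It stood at 51.3 and 92.4 CPM in the controls, and 23.6 and 36.0 CPM in the knockouts, with no overlap. This was a log2 fold change of -1.27 (standard error 0.39, adjusted p = 0.735 in edgeR). Sdc4 lost the call without Pd1fl/fl replicate 2 (log2 fold change -0.78, adjusted p = 0.854 in edgeR) and without Pd1cKO-Tie2 replicate 1 (-0.99, adjusted p = 0.882). Ndst1, the sulphating enzyme whose products hold PDGF-B, was below both controls at 79.0 and 68.7 against 30.0 and 48.9 CPM and did not reach 2-fold in edgeR with all 4 libraries (log2 fold change -0.91, standard error 0.31, adjusted p = 0.738 in edgeR). Ndst1 met the criterion in limma-voom (-1.02) and without Pd1cKO-Tie2 replicate 2 (-1.30). It was chosen after its values were seen. The median of the 12 genes was 0.12, and 7 were positive and 5 negative.

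Other signals between endothelium and mural cells (angiopoietin, TGF-β, Notch, sphingosine phosphate and endothelin genes) made up a list of 30 genes, with a median of 0.07, of which 19 were positive and 11 negative. The most abundant was Eng (endoglin, a TGF-β co-receptor of endothelium and one of the 18 endothelial markers), at 1208 and 1197 CPM in the controls, and 1504 and 1579 CPM in the knockouts. Its log2 fold change was 0.36 (standard error 0.10, adjusted p = 0.735 in edgeR), under the 2-fold limit. Tgfb3 (the ligand TGF-β3) met the criterion, with 131 and 133 counts in the controls against 48 and 18 in the knockouts. Both Pd1cKO-Tie2 libraries were far below both controls (9.09 and 9.37 against 2.01 and 1.32 CPM, log2 fold change -2.46, standard error 0.74, adjusted p = 0.735 in edgeR). Its fold stayed over 2-fold with each library left out (log2 fold change -2.79 to -2.20), but its unadjusted p passed above 0.05 and the call was lost without Pd1fl/fl replicate 1 (adjusted p = 0.844), without Pd1fl/fl replicate 2 (adjusted p = 0.833) and without Pd1cKO-Tie2 replicate 2 (adjusted p = 0.922, all in edgeR). Markers of astroglia, cells that express TGF-β ligands as well, had a summed level of 938.1 and 915.5 CPM in the controls, and 606.8 and 435.2 CPM in the knockouts, with 8 of 8 negative and 2 past the criterion. Those of leukocytes summed to 1809 and 1868 CPM against 636.7 and 1242 CPM, with 9 of 9 tested negative and 2 past the criterion. These 2 were Itgam and S100a8, and S100a8 had 531 and 7 counts in the controls against 5 and 13 in the knockouts. Without Pd1fl/fl replicate 1 the median log2 fold change of the leukocyte markers was -0.94. Over all tested genes 4.02% met the criterion. The part of astroglia or leukocytes in the values of Sdc4, Ndst1 and Tgfb3 was not tested.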

How the data were processed

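RNA of brain endothelial cells at P0 was sequenced in 2 Pd1fl/fl and 2 Pd1cKO-Tie2 libraries, grouped by the genotype in the sample labels. The authors deposited 4 tables, each pairing 1 Pd1cKO-Tie2 with 1 Pd1fl/fl library. The deposited counts are unnormalized whole numbers of reads on each gene. The CPM columns hold, by the authors, the count over the library total, and served only to recover the totals. Columns with fold changes and with raw and adjusted p-values hold the authors' own comparison of each pair and were not used. The submitters' processing notes name Bowtie2 2.2.3, TopHat2 2.0.12, HTSeq 0.6.0 and the build mm9 without their roles, while 90.0% of gene positions in the deposited tables equal GENCODE M21 (GRCm38). The use of strand is not given in the sources used here. The last Pd1cKO-Tie2 library carries a column number that differs from the labels, so only its genotype was taken as known.

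The tables were joined by Ensembl identifier to 21578 genes. From each of 2 tables, 5 broken lines were skipped, 23 symbols turned into dates were restored, and unlisted genes were set to 0 (0.00495% to 0.0107% of a library's reads). Counts were tested in edgeR 4.0.16 under R 4.3.3 (quasi-likelihood F test, TMM scaling, filterByExpr by genotype leaving 15909 genes, no covariate), and p-values were adjusted by Benjamini-Hochberg over all tested genes. The criterion was a fold change of 2 or more and a p not above 0.05. Standard errors were derived from each F statistic and fold change, and the common biological coefficient of variation was 0.61. Ratios within a library were tested by exact permutation over libraries (scipy 1.17.1, Python 3.11.15), with 0.5 added to counts where single genes were divided. Medians of a list are over its tested genes. The fit was run on simulated counts with larger fold changes than those of Pdgfb and the pericyte genes, which does not measure its power for these genes. Alternatives were filters of 1 count in all or of 10 counts per library, scaling by library size, RLE or upper quartile, DESeq2 1.42.0, limma-voom (limma 3.58.1), each library left out and, chosen after seeing the data, the mural sum without Rgs5. For the ratios they were also the mean of log2 CPM over genes, the mural sum without Acta2 and Tagln, and 1 added to counts in place of 0.5.

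The 10 genes and all lists were chosen with earlier results of these data known. Besides the 10 genes, the genes named are those of each list that met the criterion, had the largest mean CPM or were at 3 counts or fewer in every library, and others are marked as chosen after their values were seen. Col1a1, Lum, Col3a1, Dcn, Ltf, Camp, Mpo and Srf were also chosen so. No gene was named for a pattern like that of the 10, since 4 libraries are too few. Promoter windows are RefSeq's (GRCm38.p6).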

Additional observations from a re-analysis of the deposited data

How the results depend on the processing

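Over 14 results and 144 alternatives, 125 kept the direction and the side of the threshold of a value, or left a count close to the one given, though not always with the same genes behind the count. Leaving out a library moved most of the rest. Without Pd1fl/fl replicate 1 the log2 fold change turned positive for Rgs5 (0.02), Kcnj8 (0.38), Abcc9 (0.36) and Cspg4 (0.35). With each library left out the lowest values were -0.59, -0.39, -0.85 and -0.74 in the same order. Cspg4 was also positive in limma-voom (0.0032) and without Pd1cKO-Tie2 replicate 2 (0.42). The count of the 10 genes past the criterion lay between 0 and 1 with each library left out, the 1 being Notch3 (-1.24 without Pd1fl/fl replicate 2, -1.43 without Pd1cKO-Tie2 replicate 1). For the 42 other pericyte and smooth muscle genes it was 1 with no filter beyond 1 count, with at least 10 counts in every library, in DESeq2 and in limma-voom, which was Srf each time (log2 fold change 1.31 to 1.51). It lay between 0 and 1 with each library left out: Srf (2.18) without Pd1fl/fl replicate 2, Zic1 (-2.55) without Pd1cKO-Tie2 replicate 1 and Ggt1 (-5.86) without Pd1cKO-Tie2 replicate 2. For the 47 signalling genes it was 3 in limma-voom, which added Ndst1 (-1.02) to Sdc4 and Tgfb3, and lay between 1 and 2 with each library left out. The genes called were Sdc4 (-1.64) without Pd1fl/fl replicate 1, Angpt1 (4.66, higher in Pd1cKO-Tie2) without Pd1fl/fl replicate 2, Tgfb3 (-2.79) and Pdgfc (-8.97) without Pd1cKO-Tie2 replicate 1, and Sdc4 (-1.61) and Ndst1 (-1.30) without Pd1cKO-Tie2 replicate 2. The Pdgfc value is set against a lone library with 0 counts and depends on the prior count of the fit. With 1 library left out, the lone library of a genotype is assumed to vary like the other genotype, and the cause of these changes was not tested. Pdgfb kept its direction throughout, between 0.52 (library size scaling) and 0.60. Library size scaling moved the median of all tested genes to -0.066. DESeq2 gave 116 genes an adjusted p under 0.05 over all tested genes and edgeR 0, with 1016 under 0.05 before adjustment. No paired analysis was possible because the genotypes share fewer than 2 replicate numbers in the labels.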

Other observations

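Several genes around the vessel wall, chosen after their values were seen, were nearly absent from 1 library and present in the others. Angpt1 (angiopoietin-1, a pericyte ligand of the receptor Tie2) had 5 counts in Pd1fl/fl replicate 1 against 100, 320 and 60 in Pd1fl/fl replicate 2 and the Pd1cKO-Tie2 libraries. Pdgfc (a PDGF ligand) had 42, 85 and 100 counts in the first 3 libraries and 0 in Pd1cKO-Tie2 replicate 2. Ggt1 (a peptidase of brain pericytes and vessels) was counted 40 and 41 times in the controls, and 1 time and 63 times in the knockouts. The low library was a different one for each gene, and none of the 3 genes had a p under 0.05 in edgeR with all 4 libraries. With 1 library left out, each met the criterion once: Angpt1 without Pd1fl/fl replicate 2 (log2 fold change 4.66), Pdgfc without Pd1cKO-Tie2 replicate 1 (-8.97) and Ggt1 without Pd1cKO-Tie2 replicate 2 (-5.86), where in each case the low library was the lone one of its genotype.

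The 8 neuron markers summed to 843.7 and 1235 CPM in Pd1fl/fl, and 1019 and 903.6 CPM in Pd1cKO-Tie2 libraries, and the erythroid markers to 643.6 and 548 against 573 and 1063 CPM. Neither sum was highest in Pd1fl/fl replicate 1, where the pericyte genes were.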
